A study of Mus musculus with 24 samples.

Results

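Expression in mouse conceptuses at embryonic day 7.5 (ED7.5) was compared between the grandoffspring of obese grandfathers, a line labelled SL, and the grandoffspring of control grandfathers. The comparison used 8 of the 24 arrays of the study, 4 SL and 4 control, and all 19505 genes with a probe set that named exactly 1 gene. Both groups were of the outbred strain ICR-CD1 and were described as whole embryo. The sources do not spell out SL, and say neither how the grandfathers became obese, which parent linked the generations, what sex the samples had, nor whether a sample held 1 conceptus or a pool. The same labels mark groups of 4 at ED14.5 and in the liver of 7.5-day-old neonates, and these entered only where a difference between ages was tested. Since no label assigns samples to litters, p-values measure only the spread between these samples, which may be technical.

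At this age the implanted mouse conceptus is a small cup of epiblast and visceral endoderm, capped by trophoblast and surrounded by decidua, the tissue into which the uterine stroma differentiates under progesterone. Decidual cells secrete hormones of the prolactin family and are joined by uterine natural killer cells. Trophoblast giant cells at the rim of the conceptus make other members of that family, and the epiblast gives rise to the germ layers through the primitive streak. The decidua is maternal tissue, and the labels do not say to which line the mothers belonged.

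All levels below are log2 values, so that a difference of 1 is a 2-fold difference, and each difference is the SL mean minus the control mean. A gene counts as above background on an array where it exceeds the value below which 75% of the 5222 intron control probes of that array lay. By this measure 58.0% to 59.3% of genes were above background on the SL arrays and 49.0% to 64.1% on the control arrays. Control replicate 2 stood apart. It had the highest background of the 8 arrays (6.53, against 5.05 to 5.77 on the other control arrays) and the weakest separation of exon from intron control probes (0.867, against 0.921 to 0.957 on the other control arrays and 0.932 to 0.939 on the SL arrays, where 1 is complete). Where a list median quoted below moves by over 1.5 times or turns in sign without this array, both values are given. Medians of some further lists moved too, such as definitive endoderm and node (0.07, and −0.01 without this array) and glycolysis (0.04 and −0.04). The number of arrays limits the precision, and the median standard error of a difference was 0.144.

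The markers showed which tissues these samples held. Of 26 measured genes of decidual cells, all 26 were above background on the 4 arrays of at least 1 group, and 25 on all 8. Prl8a2, a decidual hormone of the prolactin family, averaged 13.32 in the control group and was below background on all 8 arrays at ED14.5, where the control mean was 2.60. The stromal transcription factor Hoxa10 averaged 12.16 here and 3.63 in the ED14.5 control group, and the progesterone receptor Pgr 10.96 and 4.06. Of 21 genes of the epiblast and pluripotency, 3 were above background on the 4 arrays of a group and 11 on no array. Counted in the same way, 7 of 22 genes of the primitive streak and mesoderm, 6 of 19 of the neural plate and 4 of 16 of primitive erythroid cells were detected. Hepatocyte genes were detected in 2 of 15 cases and skeletal muscle genes in 0 of 10. The arrays labelled whole embryo therefore carried abundant decidual transcripts in both groups, while most defining genes of the embryo proper lay near or below background. In such bulk samples, fewer cells of a type and less RNA per cell cannot be told apart.

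Across genes the groups were close. The median difference was 0.00, and 5% of genes lay below −0.31 and 5% above 0.31. Among the 9524 genes above background on all 8 arrays, 8204 (86.1%) differed by less than 0.2 in either direction. By limma with Benjamini-Hochberg adjustment over all genes, 1 gene (0.00513% of those tested) had an adjusted p below 0.05, and it was higher in SL. Before adjustment 1070 genes (5.49%) had a p below 0.05, 547 of them higher (2.8%) and 523 lower (2.68%). In 594 genes (3.05%) the groups did not overlap, with 305 (1.56%) higher and 289 (1.48%) lower in SL. The share without overlap was 3.37% among genes above background on all 4 arrays of a group and 3.32% among those above it on all 8 arrays, and 50.5% of all genes had the higher mean in SL. These shares are the background against which the counts for gene groups are read below. A difference above 1 in size was found in 45 genes, 24 higher and 21 lower, but only 22 of them were above background on all 4 arrays of a group, and in 11 of these 22 the groups did not overlap.

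**Figure D1:**
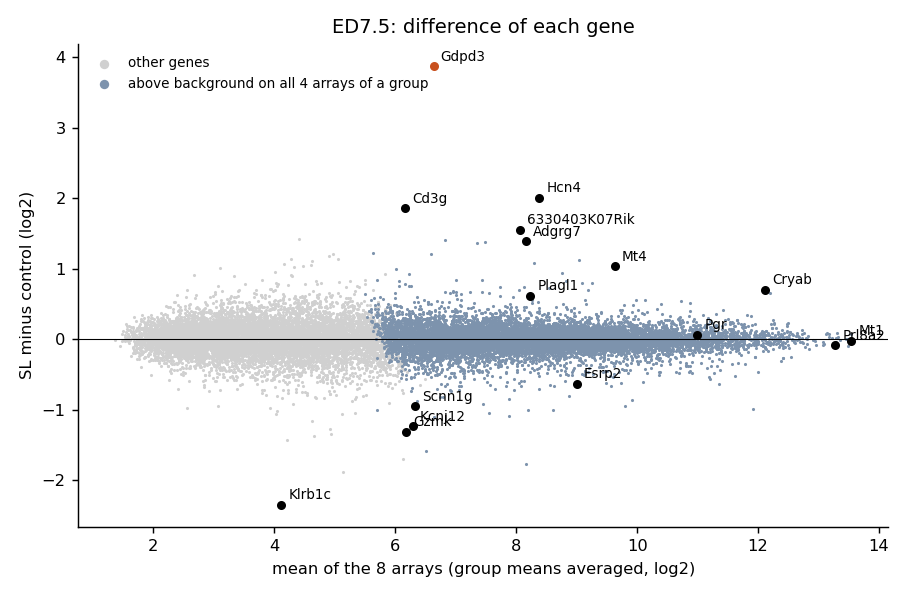
Each point is 1 of the 19505 genes at ED7.5, with the mean of both groups on the x axis (log2) and SL minus control on the y axis (log2); blue points are above background on all 4 arrays of at least 1 group. Gdpd3 stands at 3.88, the decidual gene Prl8a2 and the metallothionein Mt1 lie near 0 at the right, and Klrb1c at −2.35 lies among genes of low signal.

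The gene past the threshold was Gdpd3, which encodes a glycerophosphodiester phosphodiesterase with lysophospholipase D activity, an enzyme that releases lysophosphatidic acid or related lipids. Its level on control arrays 1 to 4 was 4.58, 5.36, 5.22 and 3.62, and on SL arrays 1 to 4 it was 8.69, 8.31, 8.94 and 8.35. Every SL array was above its background and no control array was, and the highest control value lay well below the lowest SL value. The mean rose from 4.70 ± 0.790 to 8.57 ± 0.297 (SD, n = 4 per group), a difference of 3.88 (SE 0.343, 95% confidence interval 3.11 to 4.65, adjusted p = 0.0139). Because the control group was below background, the rise is given as a bound of at least 7.57-fold, and of at least 3.96-fold with the background set at 90% of the intron probes. Leaving out 1 array at a time kept the difference between 3.52 and 4.10. The adjusted p then was 0.0320, 0.0181 and 0.00225 without control replicates 2, 3 and 4, but 0.0624 without control replicate 1 and 0.0964, 0.0682, 0.0787 and 0.0732 without SL replicates 1 to 4, so that in these 5 fits no gene passed.

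Gdpd3 spans bases 126766414 to 126775645 of chromosome 7 (mouse build GRCm38.p6), and its measured neighbours did not share the difference. The next measured gene, Ypel3, begins 1318 bases beyond its end and differed by −0.12 (95% interval −0.38 to 0.15). Of the 5 measured genes on each side, from Sgf29 to Tlcd3b, differences ran from −0.23 for Coro1a to 0.35 for Tlcd3b, with adjusted p of 0.910 to 0.998. Tbx6, a transcription factor of the paraxial mesoderm that lies 5838 bases beyond Gdpd3, was below background on all 8 arrays. Among these 11 genes Gdpd3 alone passed the threshold.

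Other enzymes of the same chemistry were examined as a list of 20 measured genes that includes Gdpd3. Of these, 3 reached an unadjusted p below 0.05, against 5.49% of all genes, and Gdpd3 alone passed after adjustment. Gdpd1, a relative of Gdpd3, had control values of 8.19, 8.33, 8.30 and 8.13 and SL values of 7.52, 7.48, 7.64 and 8.08. All SL values lay below the control values, by 0.56 on average (SE 0.142), without passing (adjusted p = 0.725). Abhd6, a hydrolase of lysophospholipids and monoacylglycerols, was 0.29 higher in SL (adjusted p = 0.887). Lpar1, a receptor for lysophosphatidic acid, was flat at 11.80 in the control group and 11.81 in SL (difference 0.01, SE 0.103).

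The genes next in rank did not pass. The plot of single genes by array shows 3 that were higher in SL and 4 that were lower, beside Gdpd3. Adgrg7, an adhesion G protein-coupled receptor, had control values of 7.84, 7.08, 7.25 and 7.67 and SL values of 8.67, 9.27, 8.88 and 8.58, a difference of 1.39 (SE 0.204, adjusted p = 0.358). Its lowest SL value lay above its highest control value on arrays that were all above background. It passed with an intensity trend in the variance (adjusted p = 0.0249). The unnamed gene 6330403K07Rik, singled out after its values were seen, stood nearer to the threshold: its control values were 7.71, 6.93, 6.95 and 7.55, its SL values 8.94, 8.47, 9.10 and 8.85, and its difference 1.55 (SE 0.209, adjusted p = 0.270). It passed with the intensity trend (adjusted p = 0.0174) and in a fit of all 24 arrays (adjusted p = 0.0219). That fit also takes its variance from the other ages, which are other tissues with their own spread.

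**Figure D2:**
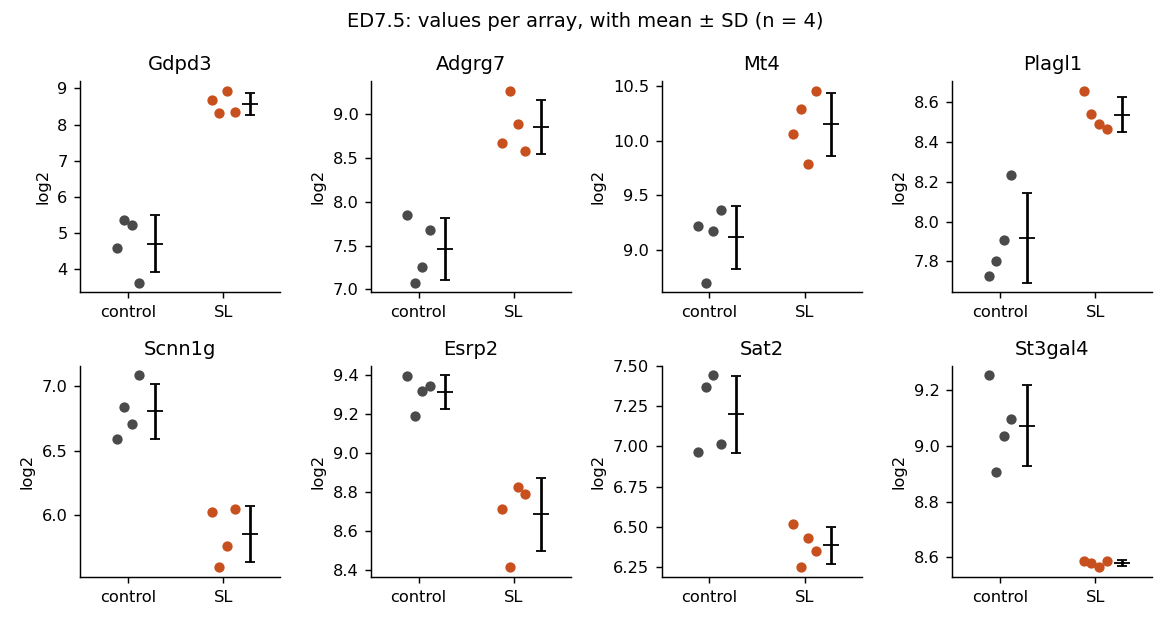
Log2 values of 8 genes on the 4 control (grey) and 4 SL (orange) arrays at ED7.5, with the group mean and SD beside them (n = 4 per group); the y axes differ and do not start at 0. In each panel the groups do not overlap, but only Gdpd3, from 4.70 to 8.57, passed the threshold over all genes.

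Of the other genes with the smallest p among those higher in SL, several have known roles in epithelia, imprinting or growth. Mt4, a metallothionein of stratified epithelia, was 9.22, 8.70, 9.17 and 9.37 in control and 10.06, 10.29, 9.79 and 10.46 in SL, 1.04 higher (SE 0.182, adjusted p = 0.634). The imprinted zinc finger gene Plagl1 was 7.73, 7.80, 7.91 and 8.24 in control and 8.66, 8.54, 8.49 and 8.47 in SL, 0.62 higher (SE 0.127). Gdf10, a ligand of the TGF-beta superfamily, stood just above background on the SL arrays at 6.10 to 6.16 and was above it on 2 of 4 control arrays. Cd3g, a chain of the T cell receptor complex, had control values of 5.94, 4.06, 4.63 and 6.28 and SL values of 7.08, 6.75, 7.52 and 6.99, and Ear10, an eosinophil-associated ribonuclease, was 1.00 higher. The rest of these 14 genes were Dusp13, Slc25a45, Dapk1, Dhtkd1, Adamts7, Dysf, Zfp423 and Slc4a11, with differences of 0.45 to 0.57. The adjusted p of the 14 ran from 0.358 to 0.725, and 9 of them were above background on all 8 arrays.

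The 15 genes with the smallest p among those lower in SL included several of epithelia and lymphocytes. Scnn1g, the gamma subunit of the epithelial sodium channel, was 6.59, 6.84, 6.71 and 7.09 in control and 6.03, 5.60, 5.76 and 6.05 in SL, a difference of −0.95 (SE 0.146, adjusted p = 0.401). Esrp2, a splicing factor of epithelia, was 9.39, 9.19, 9.32 and 9.34 in control and 8.71, 8.41, 8.82 and 8.79 in SL, a difference of −0.63 (SE 0.118, adjusted p = 0.634). Neither gene overlapped between the groups. Gzmk, a granzyme of cytotoxic lymphocytes, had control values of 6.22, 6.87, 6.75 and 7.50 and SL values of 5.24, 5.41, 6.12 and 5.33, and was above background on 4 control arrays and 1 SL array. The immune checkpoint receptor Havcr2 (TIM-3) ranged from 10.52 to 10.75 in control and from 10.08 to 10.26 in SL, a difference of −0.46 (SE 0.0982). St3gal4, a sialyltransferase, was tightly grouped in SL at 8.56 to 8.59, below the control range of 8.90 to 9.25. The others were Sat2, Kcnj12, Tex9, Cbr2, Acot13, Nipal4, Tctn1, Mpzl2, Eno2 and the olfactory receptor pseudogene Olfr1372-ps1, with differences of −1.23 to −0.47. All 15 had an adjusted p of 0.401 to 0.678, and 11 were above background on all 8 arrays. With all 24 arrays in one fit, where the variance also comes from the other tissues, Scnn1g, Sat2, Kcnj12 and Gzmk passed (adjusted p = 0.0246, 0.0138, 0.0219 and 0.0187).

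Decidual programmes had list medians near 0. Over 10 lists with 194 distinct measured genes, list medians ran from −0.10 to 0.09, and no gene passed after adjustment. Of the 194 genes, 21 (10.8%) had an unadjusted p below 0.05, 11 higher and 10 lower, against 5.49% of all genes. The groups did not overlap in 10 (5.16%), against 3.05% of all genes. All lists were chosen with earlier results of these data known, so these shares are a description. Without control replicate 2 the list medians ran from −0.26 to 0.09. The lists below are taken in the order of hormone and stromal genes, signalling, matrix, vessels, immune cells, epithelium and muscle.

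Genes of decidual cells had a median difference of 0.01 (−0.01 without control replicate 2), with 13 of 26 higher. Prl8a2 was 13.33, 13.30, 13.22 and 13.41 in control and 13.30, 13.04, 13.38 and 13.22 in SL (difference −0.08, 95% interval −0.32 to 0.16). Gja1, the gap junction protein connexin 43, differed by 0.03 (−0.19 to 0.25), and Tdo2, which starts the breakdown of tryptophan, by 0.10 (−0.15 to 0.35). No interval of these 3 genes reached beyond 0.35 in either direction. The transcription factors Hoxa10 (−0.03, interval −0.23 to 0.17), Hoxa11 (0.09, −0.12 to 0.29) and Hand2 (−0.07, −0.27 to 0.13) were as close. Cryab, a small heat shock protein, had the smallest p of the list: it was 12.46, 11.45, 11.55 and 11.57 in control and 12.37, 12.41, 12.40 and 12.66 in SL. Control replicate 1 thus lay within the SL range and the other control arrays well below it, and the difference was 0.71 (SE 0.211, adjusted p = 0.760). The proteoglycan gene Dcn was 0.33 higher, and Ptgs2, the inducible cyclooxygenase of implantation, had a difference of −0.44, each with an unadjusted p below 0.05 and overlapping groups.

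Progesterone signalling, with 19 measured genes, had a median of 0.06, with 0 genes at an unadjusted p below 0.05. Pgr itself was 10.84, 11.04, 11.12 and 10.87 in control and 11.08, 11.04, 11.00 and 10.99 in SL (difference 0.06, interval −0.16 to 0.29). Its co-chaperone Fkbp4 was 10.32 to 10.63 in control and 10.65 to 11.07 in SL, 0.28 higher without overlap (adjusted p = 0.912), and the glucocorticoid and progesterone target Fkbp5 had a difference of −0.22. The BMP, WNT and Notch genes had a median of 0.09 (0.04 without control replicate 2), with 18 of 26 higher and again 0 with an unadjusted p below 0.05. Bmp2, required for decidualization, differed by 0.13 (−0.16 to 0.42), its partner Wnt4 by 0.03 (−0.23 to 0.29), and Id2, a target of BMP signalling, by −0.21 with groups that did not overlap.

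Stromal matrix genes had a median of 0.09 over 20 genes, and of 0.02 without control replicate 2, with differences in both directions. Postn, the matricellular protein periostin, was 11.66, 11.77, 11.52 and 11.72 in control and 11.45, 10.13, 11.52 and 11.08 in SL. SL replicates 2 and 4 were lowest, SL replicate 1 lay just below the control values, and SL replicate 3 was level with the lowest of them. Its difference was −0.63 (SE 0.269, adjusted p = 0.886). The fibrillar collagen gene Col1a2 and the proteoglycan gene Lum were 0.49 and 0.47 higher (adjusted p = 0.887 and 0.835), while Sparc (0.02, interval −0.18 to 0.22) and the laminin chain Lamc1 (0.02, −0.19 to 0.22) were level. Proteases and inhibitors had a median of 0.03 (−0.03 without control replicate 2), and Mmp2, Timp2 and the cathepsin Ctsl differed by 0.17, −0.02 and −0.01. Endothelial and angiogenic genes had a median of 0.04 with 14 of 21 higher, and of −0.01 with 9 of 21 higher without control replicate 2. The endothelial cadherin Cdh5 (0.04), the VEGF receptor Kdr (0.00, interval −0.26 to 0.27) and Angpt2 (−0.02, −0.25 to 0.21) were close in both groups, and the growth factor Vegfa had a difference of −0.28 (SE 0.124, adjusted p = 0.906).

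Natural killer cell genes had a median of −0.08, with 3 of 15 higher. The pore-forming protein Prf1 was 10.82, 10.20, 10.67 and 11.02 in control and 10.68, 9.91, 10.77 and 10.22 in SL (difference −0.28, interval −0.79 to 0.22). Gzma differed by −0.38 (−0.85 to 0.09) and Gzmg by −0.30 (SE 0.188), and for both the groups overlapped. The mean of the list was lowest on SL replicate 2 (7.88), SL replicate 4 (7.98) and control replicate 2 (7.98). Without control replicate 2 the median of the list was −0.26. Klrb1c, which encodes the receptor NK1.1, had a difference of −2.35 (SE 0.704, adjusted p = 0.769). It was 6.62, 5.72, 6.08 and 2.72 in control and 2.48 to 3.17 in SL, above background on 2 control arrays and on no SL array, and control replicate 4 lay in the SL range. Without control replicate 4 it passed the threshold (adjusted p = 0.00392).

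The leukocyte list held differences in both directions, with a median of 0.08 and 10 of 18 genes higher. Without control replicate 2 the sign of the median turned, to −0.04 with 8 of 18 higher. Lyz2, the lysozyme of macrophages and granulocytes, ranged from 7.46 to 8.74 in control and from 8.75 to 9.03 in SL, 0.72 higher (SE 0.246, adjusted p = 0.813). The class II antigen presentation genes H2-Aa and H2-Ab1 were 0.66 and 0.67 higher (adjusted p = 0.760 and 0.812), with overlapping groups. C1qa, a complement subunit of macrophages, was 6.38 to 6.55 in control and 5.26 to 6.03 in SL, a difference of −0.72 (SE 0.160, adjusted p = 0.675), while its partner C1qb differed by −0.12. C1qa passed in the fit of all 24 arrays (adjusted p = 0.0237). Its lowest SL value lay below background, which was 5.50 to 5.64 on the SL arrays. The pan-leukocyte gene Ptprc (0.11, interval −0.31 to 0.53) and the macrophage receptor Csf1r (0.13, −0.14 to 0.40) were near 0.

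The uterine epithelial list had a median of −0.10 over 23 genes (−0.15 without control replicate 2). Of the 23, 7 had an unadjusted p below 0.05, 3 higher and 4 lower, against 5.49% of all genes. The 7 include Scnn1g and Esrp2, and the list was chosen with earlier results of these data known. The count is therefore a description. Beside Scnn1g and Esrp2, the mucin Muc1 had a difference of −0.57 (SE 0.174, adjusted p = 0.783) and the oestrogen-induced Ltf of −0.79 (SE 0.349), both at or near background. Krt19, a keratin of simple epithelia, was 9.45, 7.58, 8.33 and 9.42 in control and 9.38, 9.54, 9.38 and 9.68 in SL. Its difference of 0.80 rested on control replicates 2 and 3, since control replicates 1 and 4 lay within the SL range. Foxa2, a transcription factor of uterine glands and of the endoderm, was above background on 1 of 8 arrays. Other epithelial genes, such as Cdh1 (−0.20, interval −0.60 to 0.21) and Cldn3 (0.06, −0.41 to 0.54), did not pass in either direction. Smooth muscle genes had a median of −0.05. Tagln was 7.26 to 7.86 in control and 8.01 to 8.32 in SL (0.51 higher, SE 0.147, adjusted p = 0.760), whereas Acta2 (−0.12) and Des (−0.05) were not higher.

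**Figure D3:**
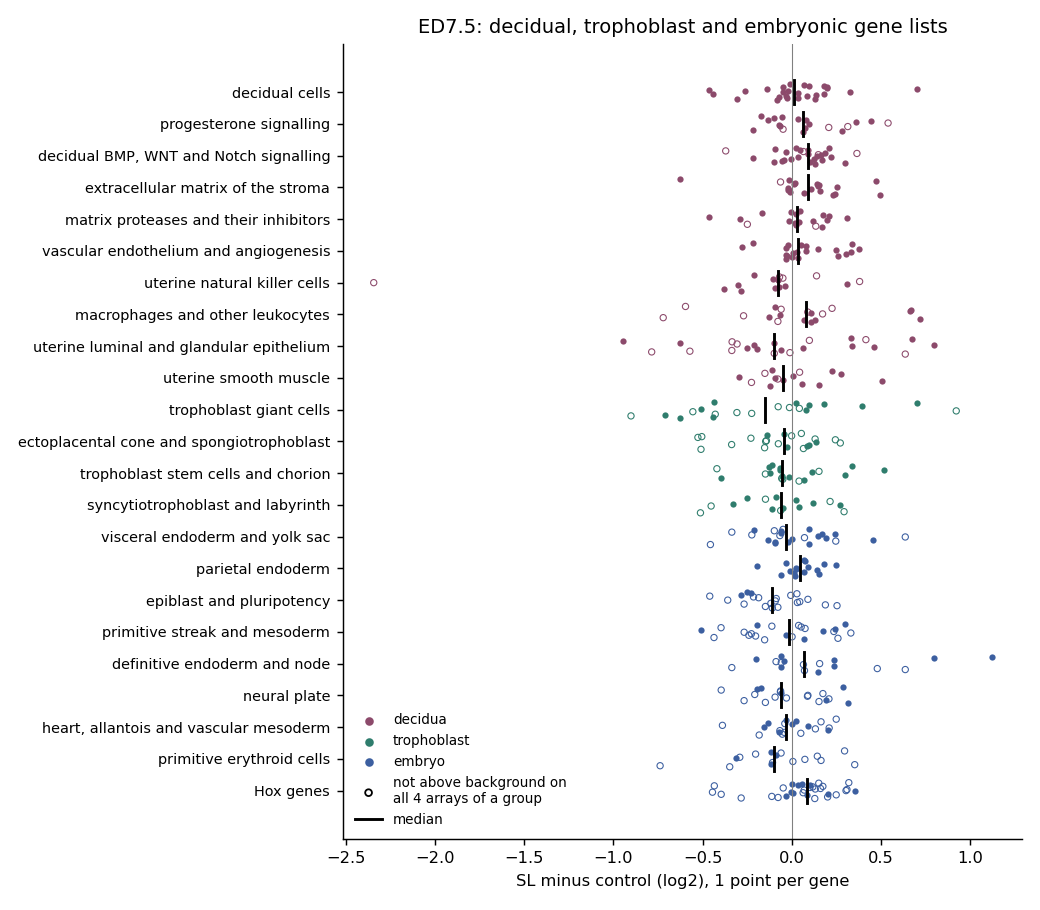
SL minus control (log2) at ED7.5 for the measured members of 10 decidual, 4 trophoblast and 9 embryonic gene lists, 1 point per gene, with the list median as a black bar; open points are genes not above background on all 4 arrays of either group. All medians lie between −0.15 (trophoblast giant cells) and 0.09, and giant cell genes scatter from −0.90 to 0.92 around theirs.

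Trophoblast giant cell genes varied widely between arrays of a group, and no trophoblast gene passed the threshold. The 4 trophoblast lists held 75 distinct measured genes, of which 39 were above background on the 4 arrays of a group. The 75 genes had a median difference of −0.06. Of them, 5 (6.67%) had an unadjusted p below 0.05, against 5.49% of all genes, and 0 passed after adjustment. The groups did not overlap in 1 gene (1.33%), Lepr, against 3.05% of all genes. The median SD within the groups was 0.325 over the 75 genes, dim ones included, against 0.297 over the genes of the embryonic lists and 0.2375 over those of the decidual lists. By list it was 0.769 for giant cells and 0.256 to 0.316 for the other trophoblast lists.

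Giant cell genes had a median difference of −0.15 over 20 genes, and of −0.33 without control replicate 2. Over the 11 genes above background on all 4 arrays of a group the median was 0.02. Without control replicate 2 it turned in sign, to −0.13, the value of Cited1. Among these 11 genes, with all arrays, Prl3d2 (−0.63), Prl3d3 (−0.44), Prl2c3 (−0.71), Hand1 (−0.51) and Plac1 (−0.44) were lower in SL. The others, Prl6a1, Lepr, Cited1, Stra6, Hsd3b6 and Mmp9, were higher, by 0.02 to 0.70. Of these, Cited1 (−0.13) and Mmp9 (−0.11) were lower without control replicate 2. The list mean was 6.37, 6.17, 6.47 and 7.31 on control arrays 1 to 4 and 6.27, 6.03, 7.21 and 6.25 on SL arrays 1 to 4. A single array was high in each group, control replicate 4 and SL replicate 3. Hand1, a transcription factor needed for giant cell differentiation, was 7.29, 7.26, 7.72 and 8.85 in control and 6.45, 6.67, 8.60 and 7.35 in SL (difference −0.51, interval −1.61 to 0.58). The placental lactogen gene Prl3d3 was 7.33, 6.87, 6.92 and 8.59 against 6.33, 6.20, 8.13 and 7.28. Prl2c3, a proliferin, was 5.95, 6.59, 7.04 and 8.64 against 5.87, 5.15, 8.46 and 5.88. Prl3d and Prl2c genes have near-identical copies, so their probe sets may share signal and are not independent.

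In 11 of the 17 giant cell genes above background on any array (64.7%), control replicate 4 and SL replicate 3 were the 2 highest of the 8 arrays. The same held for 6 of 10 ectoplacental cone genes (60%), for 4 of 10 epiblast genes (40%), for 4 of 14 trophoblast stem cell genes (28.6%), for 5 of 21 endothelial genes (23.8%), for 3 of 13 natural killer cell genes (23.1%), for 3 of 26 decidual cell genes (11.5%) and for 671 of the 12739 genes above background on any array (5.27%). In the fourth trophoblast list, syncytiotrophoblast and labyrinth, it held for 1 of 12 genes (8.33%). Shares of the lists not given here ran from 0%, as for parietal endoderm, to 33.3% (2 of 6 hepatocyte genes). Control replicate 4 and SL replicate 3 were singled out after the values were seen, so the shares are a description. The part of this array pattern in the group difference of these genes was not tested.

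Giant cell genes without this pattern included Hsd3b6, a steroidogenic enzyme of giant cells, at 9.21, 8.48, 8.92 and 8.74 in control and 9.71, 9.48, 9.91 and 9.08 in SL (0.70 higher, SE 0.204, adjusted p = 0.760). The leptin receptor gene Lepr was 6.63 to 7.03 in control and 7.06 to 7.60 in SL, 0.40 higher without overlap (adjusted p = 0.839). Stra6, a receptor for retinol uptake, differed by 0.18 (interval −0.27 to 0.63). Of these 3 genes, Lepr and Stra6 are not confined to trophoblast. Hsd3b6 was also above background on all 8 arrays at ED14.5, with a control mean of 8.85. The tissue that carried the signal of the 3 genes here was not resolved.

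**Figure D4:**
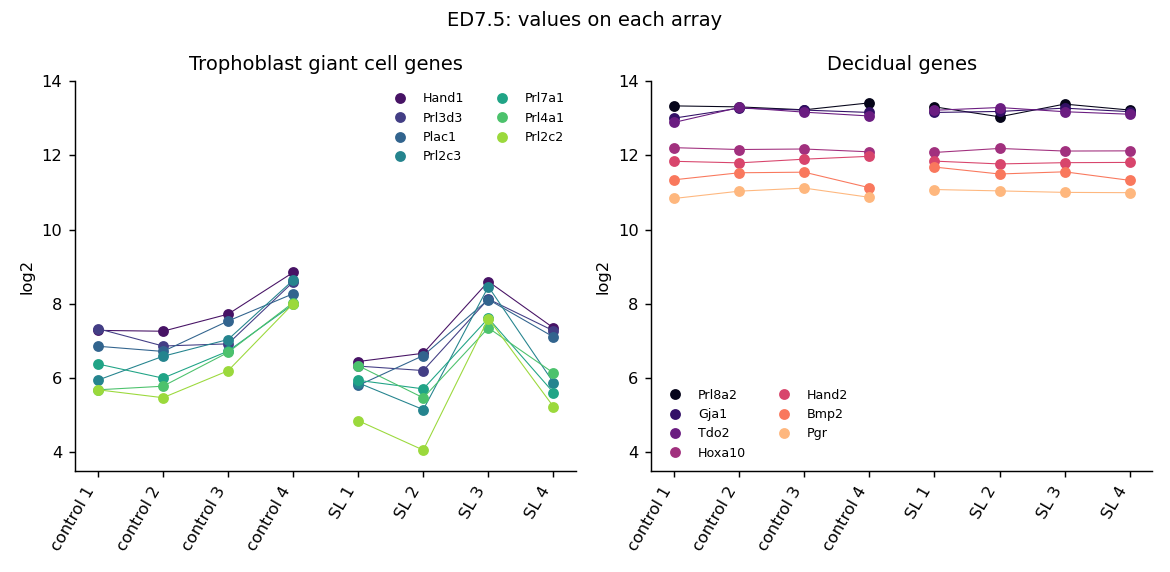
Log2 values of 7 trophoblast giant cell genes (left) and 7 decidual genes (right) on the 8 arrays at ED7.5; lines join values of 1 gene within a group and replicates have no order. The giant cell genes shown peak on control replicate 4 and SL replicate 3, with Hand1 at 8.85 and 8.60. The decidual genes shown stay level, with Prl8a2 between 13.04 and 13.41. Both sets are picked examples. List members left out, such as Hsd3b6, Stra6 and Lepr on the left and Cryab on the right, do not follow these patterns.

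Of 21 ectoplacental cone and spongiotrophoblast genes, 11 were above background on no array and 6 on the 4 arrays of a group, and the list median was −0.04, or −0.14 without control replicate 2. The spongiotrophoblast marker Tpbpa was 6.81, 5.69, 5.87 and 6.62 in control and 6.04, 5.21, 5.90 and 5.81 in SL (difference −0.51, SE 0.274), and was above background on 3 arrays of each group. Flt1 (−0.02, interval −0.35 to 0.31) and the carbonic anhydrase Car2 (−0.14) were close in both groups. Among the trophoblast stem cell and chorion genes, Cdx2, a regulator of the trophoblast lineage, was below background on all 8 arrays. Eomes, which acts in trophoblast stem cells and again in the primitive streak, was 7.87, 7.15, 7.51 and 7.97 in control and 7.71, 7.19, 8.16 and 7.71 in SL (difference 0.07, interval −0.45 to 0.58). The transcription factor genes Gata2 and Tfap2c, which act in trophoblast and in other tissues, differed by −0.01 (−0.25 to 0.22) and −0.40 (SE 0.244). Both overlapped between the groups. Syncytiotrophoblast genes had a median of −0.06, and of −0.20 without control replicate 2, and the fusion gene Syna was below background on all arrays.

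Fewer genes of the embryonic programmes were detected, and none passed the threshold. The 9 lists held 172 distinct measured genes, 74 above background on the 4 arrays of a group, with a median difference of 0.01. Of the 172, 7 (4.07%) had an unadjusted p below 0.05, against 5.49% of all genes, and 0 had an adjusted p below 0.05. The groups did not overlap in 3 (1.74%), against 3.05% of all genes. List medians ran from −0.11 to 0.09, and from −0.11 to 0.07 without control replicate 2.

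In the epiblast list the median was −0.11 over 21 genes. Pou5f1, the pluripotency factor of the epiblast, was 5.75, 4.64, 3.90 and 6.09 in control and 4.65, 4.53, 5.45 and 5.31 in SL, and exceeded background on control replicates 1 and 4 only. Lin28a, an RNA-binding protein of pluripotent cells, was 6.85, 6.11, 5.67 and 7.62 in control and 5.87, 6.38, 7.06 and 5.80 in SL (difference −0.29, interval −1.22 to 0.65). In both genes the control arrays differed from each other by more than the group means did. Sall4 differed by −0.23 (interval −0.59 to 0.14). Mesp1, a marker of nascent mesoderm, was below background on all 8 arrays, and Lef1, an effector of WNT signalling, was 8.78 to 8.99 in control and 8.97 to 9.26 in SL (0.24 higher, SE 0.107, adjusted p = 0.905). The WNT target Axin2 differed in the other direction, by −0.20 (interval −0.44 to 0.05).

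Visceral endoderm and yolk sac genes had a median of −0.03, with 15 of 24 detected. Without control replicate 2 it was −0.11, the lowest of the embryonic lists in that setting. Amn, the partner of cubilin in protein uptake, was 5.62, 5.64, 5.58 and 5.88 in control and 6.28, 6.10, 6.18 and 5.97 in SL, 0.45 higher without overlap (SE 0.113, adjusted p = 0.725). On control replicates 2 and 3 Amn was below background (6.53 and 5.77). Its partner Cubn differed by −0.13 (interval −0.90 to 0.63), and the shared receptor Lrp2 by 0.00 (−0.60 to 0.60). Dab2, an endocytic adaptor, differed by 0.19 (−0.04 to 0.43). Afp was above background on 2 control arrays and on no SL array, at 4.45 to 5.68 throughout. Parietal endoderm genes, all 16 detected and many also made by decidua, had a median of 0.05 (0.00 without control replicate 2) and differences from −0.20 to 0.25.

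Among genes of the definitive endoderm and node, Pyy, a gut peptide, was 7.78, 8.25, 8.69 and 9.20 in control and 9.07, 10.22, 9.34 and 9.78 in SL, 1.12 higher (SE 0.323, adjusted p = 0.760). SL replicate 1 lay below control replicate 4, and the other SL values were above all control values. The BMP antagonist Chrd was 0.24 higher (interval −0.06 to 0.54), and Sox17, expressed in endoderm and endothelium, differed by 0.15 (−0.31 to 0.61). Neural plate genes had a median of −0.06, heart and vascular mesoderm genes of −0.03 (−0.05 without control replicate 2), and primitive erythroid genes of −0.10, each with 0 genes at an unadjusted p below 0.05. The embryonic globin Hbb-bh1 was below background on all 8 arrays at 3.19 to 4.48, whereas at ED14.5 it was above background on all 8 with a control mean of 10.52. Of 31 Hox genes, 18 were above background on no array. Hoxa10, Hoxa11 and Hoxd11, which the uterine stroma expresses, differed by −0.03, 0.09 and 0.00.

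Processes that cut across the tissues also had small list medians. Over 18 lists with 378 distinct genes, medians ran from −0.05 for the interferon response to 0.12 for cytoplasmic ribosomal proteins. Without control replicate 2 they ran from −0.14, again for the interferon response, to 0.08. Of the 378 genes, 22 (5.82%) had an unadjusted p below 0.05, against 5.49% of all genes, and Gdpd3 alone passed. The groups did not overlap in 18 (4.76%), 14 higher and 4 lower, against 3.05% of all genes. Ribosomal protein genes were higher in 19 of 20 cases with control replicate 2, where their mean was lowest (11.38, against 11.60 to 11.83 on the other arrays), and in 17 of 20 without it, with a median of 0.05. The oxidative phosphorylation median likewise was 0.07 with that array and 0.01 without it. Its part in these shifts beyond these values was not tested.

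In the insulin and IGF list, Igf1 was 11.51, 11.60, 11.72 and 11.70 in control and 11.89, 12.07, 11.92 and 12.05 in SL, 0.35 higher without overlap (SE 0.0993, adjusted p = 0.760). The imprinted growth factor gene Igf2 was 9.21, 9.34, 9.25 and 9.70 in control and 9.32, 8.04, 9.84 and 8.34 in SL, with SL replicates 2 and 4 low (difference −0.49, interval −1.28 to 0.30). Of 33 imprinted genes, 17 were higher, and 3 had an unadjusted p below 0.05 (Plagl1, Dcn and Zim1), against 5.49% of all genes. Mest (0.09) and Cd81 (0.05) were level. In the chromatin list Kdm6b, a histone demethylase, was 8.70 to 8.87 in control and 9.01 to 9.33 in SL, 0.33 higher without overlap (adjusted p = 0.784). Dnmt3l, a cofactor of DNA methyltransferases, was 0.63 higher but below background on all arrays. In the cell cycle list Cdk6 was 10.14 to 10.54 in control and 9.78 to 10.05 in SL (difference −0.42, SE 0.121), and Gmnn, the inhibitor of replication licensing, 6.63 to 7.06 and 6.34 to 6.52 (−0.40, SE 0.119). Both had an adjusted p of 0.760. Lipid genes gave single differences, with Scd1 0.42 and Elovl6 0.40 higher in fatty acid synthesis, each with overlapping groups, and a cholesterol synthesis median of 0.07 with 12 of 18 higher. Without control replicate 2 that median was −0.01, with 8 of 18 higher. The zinc-binding proteins Mt1 (−0.02, interval −0.22 to 0.18) and Mt2 (0.09) were level beside Mt4. Unfolded protein response genes had a median of 0.07, and Calr and Hspa5 differed by −0.01 and 0.08.

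The genes that varied most between arrays did not separate the groups. The 10 with the largest SD within the groups, among genes above background on all 8 arrays, had an SD of 0.850 to 1.30, and the groups overlapped in all 10. Nmnat2, an enzyme of NAD synthesis, was 9.15, 7.13, 7.17 and 9.17 in control and 6.96, 9.43, 6.85 and 9.30 in SL, with 2 high and 2 low arrays in each group and a difference of −0.02. The protocadherin gene Pcdh17 was 6.79, 8.18, 8.24 and 8.06 in control and 6.80, 8.57, 6.90 and 8.60 in SL. Tfpi2, an imprinted protease inhibitor gene, and Ptx3, a pattern recognition molecule, were high on control replicates 1 and 4 and SL replicates 1 and 3. The remaining genes were the cornified envelope genes Sprr2d and Sprr2g and the trophoblast genes Prl5a1, Hand1, Prl3d3 and Plac1. In 7 of the 10, both of SL replicates 1 and 3 lay on one side of both of SL replicates 2 and 4. The same spread limits some large differences: Hcn4, a pacemaker channel gene named after its values were seen, was 2.01 higher in SL (SE 0.674, adjusted p = 0.812), but control replicate 1, at 9.74, lay within the SL range of 8.81 to 9.92.

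The difference at ED7.5 was then set against that at the other ages. In a fit of all 24 arrays, the SL difference at ED7.5 differed from that at ED14.5 in 15 genes (0.0769% of those tested). Gdpd3 had the largest contrast, 4.23 (SE 0.514, adjusted p = 0.000359). At ED14.5 it was near or below background in both groups, at 5.19 ± 0.774 in control and 4.83 ± 0.275 in SL (SD, n = 4 per group), and this call held in all 8 fits that left out an ED7.5 array. The difference also exceeded that in the liver, by 3.30 (SE 0.514, adjusted p = 0.0357), and Gdpd3 was the only gene of 19505 in that contrast (0.00513%). Liver levels were 4.97 ± 0.610 in control and 5.55 ± 0.333 in SL (SD, n = 4 per group). Without single ED7.5 arrays the liver contrast passed in 4 of 8 fits, those without a control array, with an adjusted p of 0.0222 to 0.122 over the 8, and it did not pass with array weights (adjusted p = 0.196). Both contrasts share the ED7.5 arrays and are not independent of each other.

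In most of the other 14 genes the larger difference was at ED14.5. Cirbp, a cold-inducible RNA-binding protein, was 8.67 ± 0.311 in control and 8.39 ± 0.203 in SL at ED7.5 (SD, n = 4 per group), a difference of −0.28, against 1.79 at ED14.5 (contrast −2.07, SE 0.199, adjusted p = 1.13e-05). The immediate early gene Egr1 differed by 0.25 and −1.21, the chaperone gene Hsph1 by 0.25 and −0.98, and Pdk4, a kinase that restrains pyruvate oxidation, by −0.20 and 1.20. Sat2, a diamine acetyltransferase family member, was the reverse: 6.97, 7.37, 7.44 and 7.02 in control and 6.51, 6.25, 6.43 and 6.35 in SL at ED7.5, a difference of −0.81, against 0.36 at ED14.5 (contrast −1.18, adjusted p = 0.00985). Havcr2 differed by −0.46 at ED7.5 and by 1.57 at ED14.5, where it exceeded background on 1 of 8 arrays. Btc and Slc27a2 also had the larger difference at ED7.5, −0.77 and −0.95, but Btc was above background on 1 of the 8 ED7.5 arrays and Slc27a2 on none. The remaining genes were Cracd, Map7d3, Rex2, Slc10a5, Traf4 and Zfp600. Of these, Slc10a5 was above background on no ED7.5 array, and at ED14.5 Rex2 exceeded it on 1 and Zfp600 on 4 of 8 arrays. Slc10a5 and Zfp600 each passed in 2 of the 8 fits that left out an ED7.5 array. Without control replicate 2, 8 genes passed in place of 15.

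**Figure D5:**
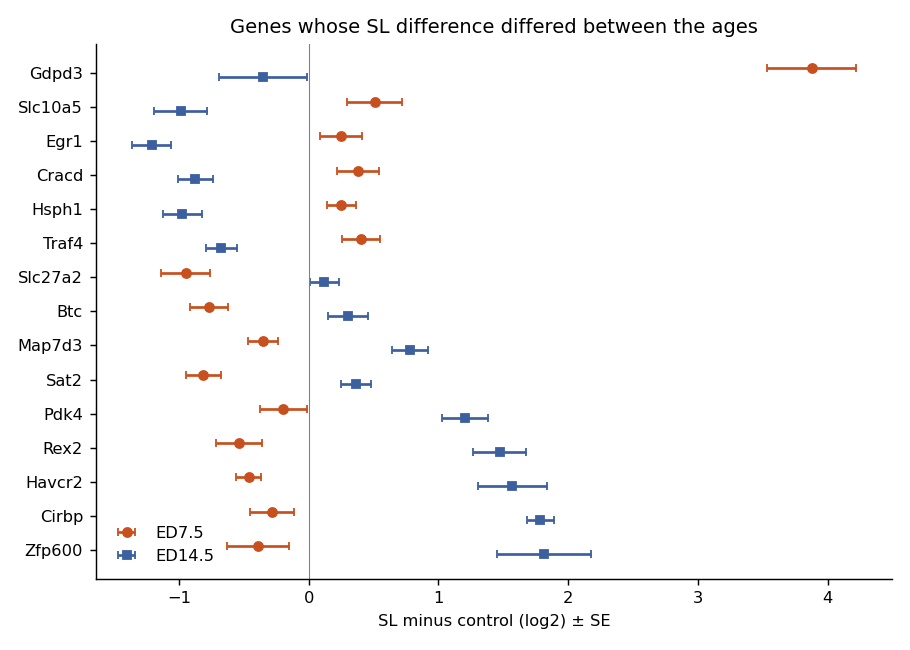
SL minus control (log2, with SE) at ED7.5 (orange circles) and ED14.5 (blue squares) for the 15 genes whose difference differed between these ages by the contrast over all 24 arrays. Gdpd3, at 3.88 and −0.35, stands furthest apart, and Cirbp, at −0.28 and 1.79, has its larger difference at ED14.5.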

How the data were processed

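Single-colour Affymetrix arrays were hybridised with biotin-labelled cRNA from 6 µg of Trizol-extracted total RNA of snap-frozen samples, per the labels' protocols. The deposited values are log2 probe set summaries that the authors made with RMA (background correction, quantile normalization and summary) in the oligo package, per the submitters' processing notes; the notes name no version and no grouping of arrays. That values are log2 follows from RMA and their range. Of 29129 probe sets, 6923 were controls and 19572 named a single gene in the platform's annotation; for 55 genes with several, the probe set with the highest mean was used. Coordinates are RefSeq's for GRCm38.p6.

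SL and control were compared with limma 3.58.1 (R 4.3.3), two-sided, with Benjamini-Hochberg adjustment over all 19505 genes at 0.05; the procedure was tested on simulated data. Intervals are 95% intervals from this fit. Contrasts between ages used all 24 arrays. Members, lists and rules were chosen with earlier results of these data known. Genes were named if they passed; if among the 15 smallest p per direction without overlap and above background on all 4 arrays of a group, passing over predicted or unnamed symbols such as Rik genes; as the 3 highest members by mean and the smallest p of each of 43 lists; as the 10 with the largest SD; or as tissue anchors. Further list members are named as examples, chosen after their values were seen. Alternatives were array weights, an intensity trend with a robust prior, the fit of all 24 arrays, a replicate block, dim genes left out, quantile normalization, the mean of probe sets, a background at 90%, and each array left out.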

Additional observations from a re-analysis of the deposited data

Results flagged for a closer look

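Of 492 groups of 4 values examined (203 named genes and 43 list means, each in both groups), 20 had 1 array whose gap to the nearest other array, as a share of the range of the group, exceeded Dixon's critical value for 4 values. Chance gives about 1 in 20 groups.

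In the control group, replicate 1 stood apart for Cryab (12.46), Pcna (11.24) and Pcdh17 (6.79), replicate 2 for Fkbp4 (10.32) and Pkm (12.18), replicate 3 for Slc25a45 (7.04) and replicate 4 for Cd81 (12.69). In SL, replicate 1 stood apart for Des (12.60) and Pdia6 (12.32), and replicate 2 for Mmp2 (10.08), Gata2 (10.64) and Atp5a1 (12.44). SL replicate 3 did so for Rps15 (12.45), and replicate 4 for Cryab (12.66), Cdh2 (6.89) and Myc (11.15). Among list means these were SL replicate 3 for imprinted genes (7.90) and for oxidative stress and NRF2 targets (10.07), SL replicate 2 for the hypoxia response (9.41) and SL replicate 4 for metallothioneins and zinc transport (9.93).

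The SL difference at ED7.5 differed from that at ED14.5 by a contrast within the limma fit of all arrays in 15 genes. It was larger at ED7.5, with its sign, for Gdpd3 (4.23), Slc10a5 (1.50), Egr1 (1.46), Cracd (1.26), Hsph1 (1.23) and Traf4 (1.08). It was smaller for Btc (−1.07), Slc27a2 (−1.07), Map7d3 (−1.13), Sat2 (−1.18), Pdk4 (−1.40), Rex2 (−2.01), Havcr2 (−2.03), Cirbp (−2.07) and Zfp600 (−2.20). The contrast with the liver was 3.30 for Gdpd3.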

How the results depend on the processing

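The difference of Gdpd3 kept its direction under all 15 alternatives fitted at ED7.5, while its adjusted p crossed the threshold in 5 of the 8 fits that left out an ED7.5 array. The count of genes past the threshold at ED7.5 was 1, against 3 with an intensity trend and robust prior (Gdpd3, Adgrg7 and 6330403K07Rik), 12 in the fit of all 24 arrays (3 higher, 9 lower) and 0 to 2 without 1 array. It was 0 without control replicate 1 and without each SL array (limma, with 923 to 1283 genes at an unadjusted p below 0.05), and 2 without control replicate 3 (Gdpd3 and Mc5r) or 4 (Gdpd3 and Klrb1c). The contrast with ED14.5 gave 15 genes, against 35 with the trend, 46 with array weights, 5 with the replicate block and 8 to 19 without 1 array. The contrast with the liver gave 1, against 0 with array weights (1519 genes at an unadjusted p below 0.05) or the replicate block (1875) and 0 to 10 without 1 array (10 without control replicate 1, 2 without control replicate 4). The lower bound of the Gdpd3 fold was 3.96 with the background at 90% of the intron probes. Of 3020 values of the 203 named genes, 165 had the other sign with a call in neither fit, and 0 reversed a call. The cause of these changes was not tested.

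The replicate block left the ED7.5 count at 1 (Gdpd3, adjusted p = 0.0293 by limma). Same-numbered arrays of the groups correlated in their deviations at −0.166 to 0.0698 (n = 4 pairs) and other pairs at −0.0872 to 0.119, so the numbers were not used as a pairing. With 4 arrays per group, even differences several times their standard error did not pass, such as 1.39 (SE 0.204) for Adgrg7 and −1.23 (SE 0.238) for Kcnj12. Most embryonic and many trophoblast genes also had signal near background.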
